A study of Mus musculus with 16 samples.

Results

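Wild-type metanephric mesenchyme of the mouse kidney at E11.5 (embryonic day) was isolated in 2 ways, and the 7 arrays of the 16 in the series that hold it are compared here: 4 arrays of laser-captured mesenchyme (replicates 1 to 4) against 3 arrays of mesenchyme dissected by hand (replicates 5 to 7). The arrays were chosen by their labels alone, and the genes Fos, Fosb, Egr1 and Calb1 were set as its markers with earlier results of these data in view. Both groups were wild type. For capture, kidney rudiments dissected in cold saline were frozen in embedding compound and sectioned at 7 µm, and the sections were fixed in acetone, dehydrated and cleared before a laser lifted the mesenchyme off the slide. Each captured sample pooled 3 to 4 mesenchymes. For hand dissection, whole rudiments up to the T-shaped stage were held for 30 min at 37 °C in collagenase B at 0.5 mg/ml, an enzyme that digests collagen and loosens the tissue, the bud was then pulled away, and each sample was prepared from individual mesenchymes. All 7 samples were extracted with 30 ng of carrier RNA and amplified in 2 rounds before hybridisation to the same type of Affymetrix mouse array. Capture, sectioning, fixation, pooling, warming and collagenase therefore differed together, and their separate effects cannot be told apart. The series text describes the replicates as separate embryos, while strain, litter, slide and scan date do not appear in the labels used. The other 9 arrays serve only for reference: 4 of wild-type ureteric bud dissected by hand after the same collagenase step, pooled from 3 to 9 buds, and 5 of Hoxa11/Hoxd11 double null mesenchyme captured from sections of urogenital ridges.

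The metanephric mesenchyme surrounds the ureteric bud, an epithelial tube that branches into the collecting ducts, and the mesenchyme next to the bud forms the nephrons under the control of factors such as Six2, Eya1 and Wt1. Immediate-early genes such as Fos, Jun and Egr1 are transcribed within minutes of a growth factor, calcium or stress signal from promoters already occupied by serum response factor and related proteins, need no new protein synthesis, and have short-lived messenger RNA. Their products are transcription factors, and further early genes, such as Dusp1, Zfp36 and Btg2, dampen the same signal. Enzymatic dissociation of tissue at warm temperature is widely known to be accompanied by higher levels of such transcripts.

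The largest decreases in captured tissue lie among early-response genes. Shown are 4 stretches upstream of the starts of such genes, chosen because they hold a sequence element for which such promoters are known. They come from RefSeq (GRCm38.p6) and run 5′ to 3′ on the gene's strand. Those of Fos, Srf and Zfp36 end at the base before the annotated start. The capitals mark the TATA box (TATAAA) in Fos, at chr12:85473640-85473889 on the plus strand, and the CArG box, the binding element of serum response factor, in the others. Srf itself, at chr17:46556163-46556412 on the minus strand, holds 2 CArG boxes, and Zfp36, at chr7:28379229-28379478 on the minus strand, holds 1. Srf is not among the largest decreases, with a difference of -0.86 on the log2 scale. For Egr2 only 30 bases around its CArG box are shown, at chr10:67537484-67537513 on the plus strand. They come from the first of its 5 annotated windows that held the box.
Fos: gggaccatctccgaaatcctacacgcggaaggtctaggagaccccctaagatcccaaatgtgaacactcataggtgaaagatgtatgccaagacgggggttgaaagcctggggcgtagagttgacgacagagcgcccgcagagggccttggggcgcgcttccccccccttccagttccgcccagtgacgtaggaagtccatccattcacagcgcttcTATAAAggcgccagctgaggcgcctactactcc
Srf: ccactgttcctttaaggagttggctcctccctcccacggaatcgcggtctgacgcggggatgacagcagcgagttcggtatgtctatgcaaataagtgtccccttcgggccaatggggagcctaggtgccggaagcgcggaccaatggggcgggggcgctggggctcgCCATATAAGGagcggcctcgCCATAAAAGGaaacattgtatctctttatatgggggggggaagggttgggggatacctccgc
Zfp36: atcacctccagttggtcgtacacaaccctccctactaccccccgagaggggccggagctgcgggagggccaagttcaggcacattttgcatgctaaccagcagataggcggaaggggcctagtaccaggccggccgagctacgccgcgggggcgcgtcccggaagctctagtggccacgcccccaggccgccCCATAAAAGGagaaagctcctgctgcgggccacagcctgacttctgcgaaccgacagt
Egr2: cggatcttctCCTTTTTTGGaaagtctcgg

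Of the 22 early-response genes that were lower in captured tissue in the fit described next, 20 had a promoter window in the RefSeq table, which spans 250 bases before to 50 bases after the start. Every element was searched on both strands. The CArG box occurred in 3 of these 20 genes (Egr2, Srf and Zfp36) and in 1.81% of the 27025 genes with a window. The cAMP response element TGACGTCA occurred in 4 of the 20 (Maff, Dusp1, Btg2 and Errfi1) and in 2.03% of all genes. The letters TATAAA of the TATA box, which can overlap a CArG box, occurred on either strand in 5 of the 20 and in 15.7% of all genes. In Srf the stretch printed above holds them on the opposite strand only. The Egr element GCGTGGGCG occurred in 1 and in 0.707%, and the AP-1 element TGACTCA in 0 and in 5.95%. The 10 bases of each CArG box end 48 bases before the start in Zfp36 and 62 in Egr2, and the pair in Srf end 72 and 52 bases before it. These are matches of letters, and binding was not measured.

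Values are MAS5 signals, a linear measure of probe-set brightness that the authors scaled to a common trimmed mean, and they are compared on the scale log2(signal + 36.3), with an offset equal to the 25th percentile of the 16 arrays' signals, which reduces the differences of dim genes. Differences are captured minus hand-dissected, with limma's standard error (SE) and its adjusted p (Benjamini-Hochberg, threshold 0.05). A gene stands for its probe set with the highest mean over the 16 arrays. In all, 1659 of 12172 tested genes (13.6%) were higher and 1202 (9.88%) lower in captured mesenchyme, or 3857 (16.3%) and 2009 (8.51%) of 23612 probe sets. This split of 65.8% higher among called probe sets depended on scaling: it was 56.0% with cyclic loess, 53.4% with quantile normalization and 43.2% with each array centred on its median, since the median difference over all probe sets was 0.11 as deposited, -0.01, -0.04 and -0.08. Differences near these shifts have no settled direction. The counts of every gene list below stand beside the shares of 13.6% higher and 9.88% lower over all genes.

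Several values bear on the arrays as a whole. Values of log2(signal + 36.3) correlated across probe sets at 0.950 to 0.968 within the captured group and at 0.967 to 0.976 within the hand-dissected group, and captured replicate 3 lay closest to the hand-dissected arrays (0.947 to 0.960, against 0.926 to 0.942 for the other captures). Hand-dissected replicate 7 carried both Xist, the RNA of the inactive X chromosome, at 18682, and the Y-linked Eif2s3y at 2488, whereas hand-dissected replicate 5 had 30402 and 1.4 and replicate 6 had 172 and 3723. An array labelled as individual mesenchymes thus held signal of both sexes, and the counts of called probe sets without it were 2365 higher and 1026 lower. The hybridisation controls, which are added in fixed amounts, were 1.96-fold (bioB), 1.77-fold (bioC), 2.02-fold (bioD) and 1.50-fold (cre) brighter in captured samples. The 18S ribosomal RNA probe set was 9.44-fold brighter (7853 ± 4039 against 832 ± 180, SD, n = 4 and 3, two-sided exact permutation p = 0.0571). The B1 repeat probe set was 3.10-fold brighter (exact p = 0.0286, the smallest that 4 against 3 arrays allow). The ratio of 3′ to 5′ Gapdh signal, which rises with shortened RNA, averaged 19.8 in captured and 42.5 in hand-dissected samples (exact p = 0.0857), and that of Actb 17.1 and 13.8 (exact p = 0.229). After adjustment over the 12 quality measures the lowest p was 0.0857, so none passed. The part of these measures in the results was not tested.

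**Figure D1:**
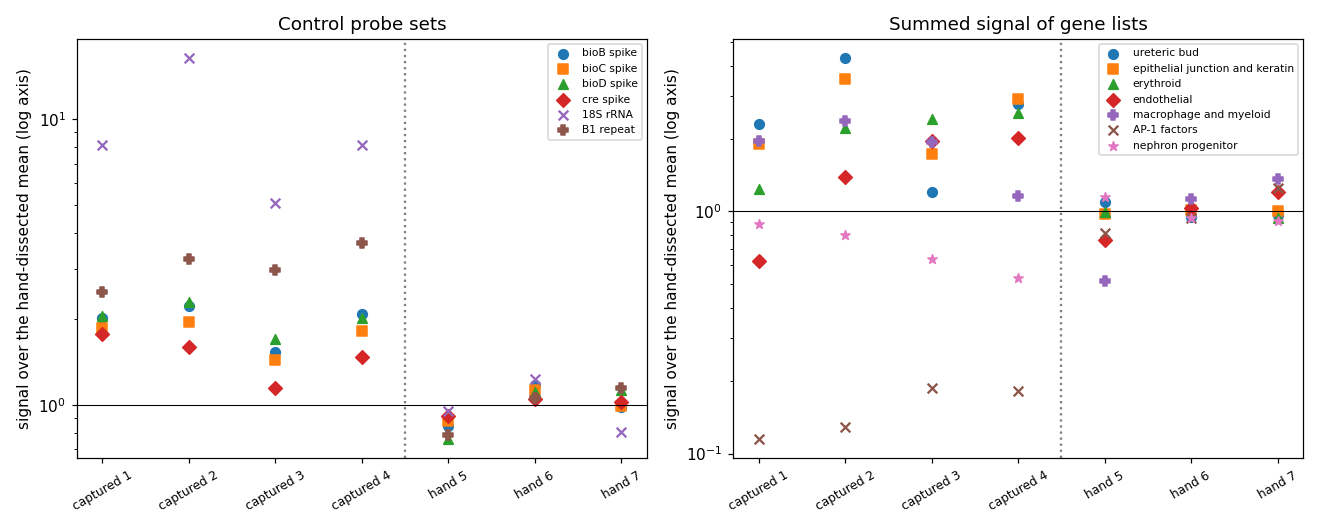
Left, signals of control probe sets on the 7 wild-type mesenchyme arrays, divided by the mean of the 3 hand-dissected arrays (log axis). Right, summed signals of 7 gene lists on the same arrays and scale; the bud list of captured arrays lies above 1 and the AP-1 list below 0.2, while the endothelial list of captured replicate 1 lies below the hand-dissected mean.

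The mesenchyme identity of both groups was checked against its markers. Eya1, a phosphatase and co-activator of nephron progenitors, Gdnf, the ligand that draws the bud, Wt1 and the integrin subunit Itga8 were above the array median on all 7 arrays, with captured and hand-dissected means of 15105 and 19556, 9437 and 15149, 4488 and 3049, and 8912 and 7972. None of these 4 passed the test (limma adjusted p = 0.0582 to 0.541). Six2 passed, with values given below. Cited1 and Osr1, which also mark these cells, were dim in both groups, at 278 and 61.8 and at 183 and 79.4, and did not pass the filter on low values. Of the stromal markers, Foxd1 stood at 10605 and 12067 (limma adjusted p = 0.562) and Pdgfra at 20258 and 21402 (adjusted p = 0.682). The other stromal markers were called in opposite directions. Meis1 stood at 10919 and 17411 (-0.69 ± 0.16 SE, limma adjusted p = 0.0104) and Tcf21 at 6364 and 3246 (0.99 ± 0.24 SE, adjusted p = 0.0124).

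The genes of the AP-1 complex, which pairs a Fos protein with a Jun protein on DNA, were lower in captured mesenchyme. Of 10 listed, 9 passed the filter, and 5 fell, 0 rose and 4 did not pass the test, beside 9.88% of all tested genes lower; their median difference was -1.70 against 0.08 over all genes. Fos, the founding member, read 57.3, 768, 252 and 201 in captured replicates 1 to 4 and 26752, 35432 and 35870 in hand-dissected replicates 5 to 7, a difference of -6.92 ± 0.54 SE (limma adjusted p = 9.65e-05). Fosb, its close relative, read 87.1, 145, 58.1 and 3.6 against 18505, 14849 and 20617 (-7.54 ± 0.43 SE, adjusted p = 1.42e-05). For both genes the lowest hand-dissected array exceeded the highest captured array many times over, and all 4 captured Fosb values lay below the median of their array, so its difference depends on the offset and ran from -7.99 to -6.76 over the alternative settings.

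Jun, the partner of Fos, read 2581, 2034, 4329 and 3313 in captured and 7729, 9106 and 14730 in hand-dissected samples (-1.77 ± 0.28 SE, limma adjusted p = 0.00194), again without overlap. Maff, a small Maf protein that lacks an activation domain, fell by 1.86 on the log2 scale, and Junb by 1.62, at a mean of 95.5 against 385. Both calls were lost without hand-dissected replicate 7, which left 3 of the 9 lower. The other bright members were not called: Fosl2 differed by -1.70 ± 0.62 SE (adjusted p = 0.0666), with 3432 in hand-dissected replicate 5 against 3403 in captured replicate 4, and Jund, which is present in many resting cells, by -0.25 ± 0.17 SE (adjusted p = 0.308). Fos and Jun separated the groups widely, Fosl2 by that narrow gap, and Jund met at 4183 in captured replicate 4 and hand-dissected replicate 5. Because several members passed the filter through the hand-dissected arrays alone (2 of 9 were above the array median on no captured array), these counts describe the list and support nothing further. A stricter filter, which asks for signal above the median on all 7 arrays, left 5 members, Fos and Fosb not among them, of which 1 fell.

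The zinc finger and nuclear receptor factors of the same response were also lower. Of 17 listed Egr, Klf, Nr4a and related genes, 16 passed the filter, 9 fell and 0 rose, beside 9.88% of all tested genes lower. Their median was -1.12 and all 16 differences lay below 0. Of the 16, 1 was above the array median on no captured array and so passed the filter through hand-dissected arrays alone. These counts therefore describe the list and support nothing further. With the stricter filter 13 were tested, of which 7 fell and 0 rose. Egr1, a zinc finger activator, read 2209, 3225, 2616 and 2001 in captured and 24911, 50834 and 51962 in hand-dissected samples (-4.01 ± 0.26 SE, limma adjusted p = 2.28e-05). Captured tissue thus kept a clear Egr1 signal, above the median on every array, unlike Fosb. Its relative Egr2, whose CArG box is printed above, read 81.0, 122, 417 and 20.3 against 3373, 9801 and 14059 (-5.72 ± 0.63 SE, adjusted p = 0.000391), and Egr3 read 50.8, 5.0, 25 and 43.6 against 341, 1338 and 3887 (-4.29 ± 0.64 SE, adjusted p = 0.0015). Egr3 lay below the array median on all 4 captured arrays and Egr2 on 3 of them, so both differences depend on the offset. The hand-dissected arrays held the same order for all 3 Egr genes, replicate 5 lowest and replicate 7 highest.

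Klf4, a Krüppel-like factor also known for its role in pluripotency, read 553, 865, 1133 and 1041 in captured and 4859, 5591 and 10965 in hand-dissected samples (-2.89 ± 0.32 SE, limma adjusted p = 0.000391). The orphan nuclear receptor Nr4a1 read 311, 418, 434 and 392 against 1122, 3888 and 6287 (-2.86 ± 0.46 SE, adjusted p = 0.00201). Klf6 fell by 2.03, Ier3 by 1.32 and Klf9 by 0.92. Srf, the factor that binds CArG boxes, fell by 0.86. The bright members Ier2 and Ier5 overlapped between groups and were not called (-0.31 ± 0.29 and -0.24 ± 0.28 SE). Without hand-dissected replicate 7 the count of lower members was 6 of 16 and the median -0.65, since Srf, Klf9 and Ier3 no longer passed. The call of Klf9 was also lost without captured replicate 2 or 4 or hand-dissected replicate 5, and that of Ier3 without captured replicate 1, 2 or 3 or hand-dissected replicate 6. Some other probe sets of Klf9, Srf and Ier5 pointed the other way, at 0.72, 0.36 and 0.71.

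**Figure D2:**
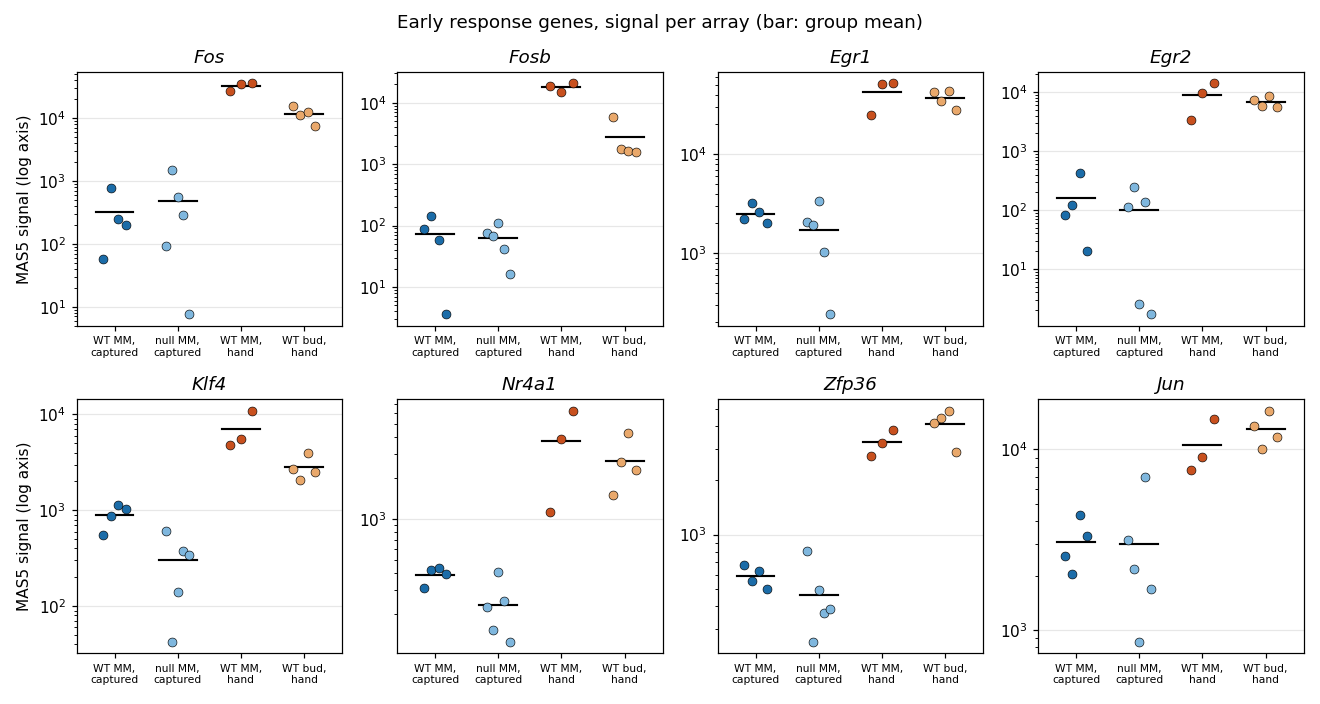
MAS5 signal (log axis) of 8 early-response genes on all 16 arrays: captured wild-type mesenchyme (n = 4), captured Hoxa11/Hoxd11 null mesenchyme (n = 5), hand-dissected wild-type mesenchyme (n = 3) and hand-dissected wild-type bud (n = 4); points are arrays and bars group means. In all 8 genes the 7 hand-dissected arrays lie above the 9 captured arrays.

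Feedback and secreted genes of the early response divided. Of 35 listed, 24 passed the filter, 8 fell, 1 rose and 15 did not pass the test (median -0.50). Over all tested genes 9.88% were lower and 13.6% higher. Zfp36, a protein that speeds the decay of AU-rich messenger RNA, read 674, 553, 629 and 499 against 2741, 3228 and 3783 (-2.39 ± 0.22 SE, limma adjusted p = 0.000204), with a narrow spread in both groups. Btg2, an antiproliferative cofactor, fell by 2.36, Ccn1, a matrix-associated signalling protein, by 2.06 and Gadd45a, a stress sensor, by 2.00. The exception was Gadd45g, higher by 1.15, a call that was lost when captured replicate 1, 2 or 4 or hand-dissected replicate 5 was left out. In the list of Ret and FGF signal feedback, 3 of 12 tested members fell and 1 rose: Dusp6, the phosphatase that inactivates ERK, read 9741, 12563, 11929 and 10536 against 29442, 24739 and 32360 (-1.36 ± 0.14 SE, adjusted p = 0.000328), and Spred1 and Il17rd, inhibitors of the same cascade, fell by 0.84 and 0.89. The member that rose was the LIM protein Lmo4 (0.74), a call lost in 6 of the 7 fits with 1 array left out. Other probe sets of Spred1 lay from -0.97 to 0.31 and that of Il17rd at 0.05, and the call of Il17rd was lost without captured replicate 1 or 4 or hand-dissected replicate 6 or 7.

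Other stress programmes moved less. Of 19 cytosolic heat shock genes, 3 fell and 2 rose (median -0.20, and -0.08 without captured replicate 1 or -0.11 without hand-dissected replicate 7). These heat shock shares lie not far from the 9.88% lower and 13.6% higher over all genes. The co-chaperones Dnajb4, Chordc1 and Dnajb1 fell by 1.44, 0.60 and 0.78, and the constitutive chaperones Hspa8 and Hsp90aa1 were higher by 0.54 and 0.36. Of 12 NF-kB and cytokine genes, 3 fell and 2 rose. Nfkbiz, Nfkbia and Tnfaip3 fell by 1.53, 0.62 and 0.86, and Nfkb2 and Nfkbie were higher by 1.14 and 1.17 at low signal. Without hand-dissected replicate 7 the NF-kB counts were 1 lower and 0 higher. The calls of Hsp90aa1, Nfkb2 and Nfkbie were each lost in 4 to 6 of the 7 fits with 1 array left out. Other probe sets of Dnajb4, Hsp90aa1 and Nfkbia pointed the other way, at 0.03, -0.50, and 0.01 and 0.41.

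The unfolded protein and amino acid list had 3 of 22 higher (Sdf2l1, Atf5 and Phgdh) and 1 lower, Ddit4, an inhibitor of mTOR signalling, which read 1390, 1095, 1847 and 1707 against 5790, 5750 and 3207 (-1.66 ± 0.27 SE, limma adjusted p = 0.00206). Of 26 hypoxia and glycolysis genes, 2 rose (Pfkp and Slc2a1) and 3 fell (Pfkl, Ero1a and Tpi1). Of 10 oxidative and metal genes, 2 rose (Mt1 and Fth1) and 1 fell (Slc30a1). Of 16 p53 and apoptosis genes, 1 rose (Bak1) and 3 fell (Casp9, Cdkn1a and Zmat3). Each of these shares rests on 1 to 3 genes in a direction, beside 13.6% higher and 9.88% lower over all genes. The calls of Atf5, Phgdh, Slc2a1, Tpi1, Fth1, Cdkn1a and Zmat3 were each lost in 3 to 6 of the 7 fits with 1 array left out, that of Pfkl without hand-dissected replicate 6 or 7, that of Pfkp without captured replicate 2 and that of Slc30a1 without hand-dissected replicate 7. Other probe sets of Ero1a (0.48), Tpi1 (0.06), Slc30a1 (0.38) and Fth1 (-0.43) had the opposite sign.

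**Figure D3:**
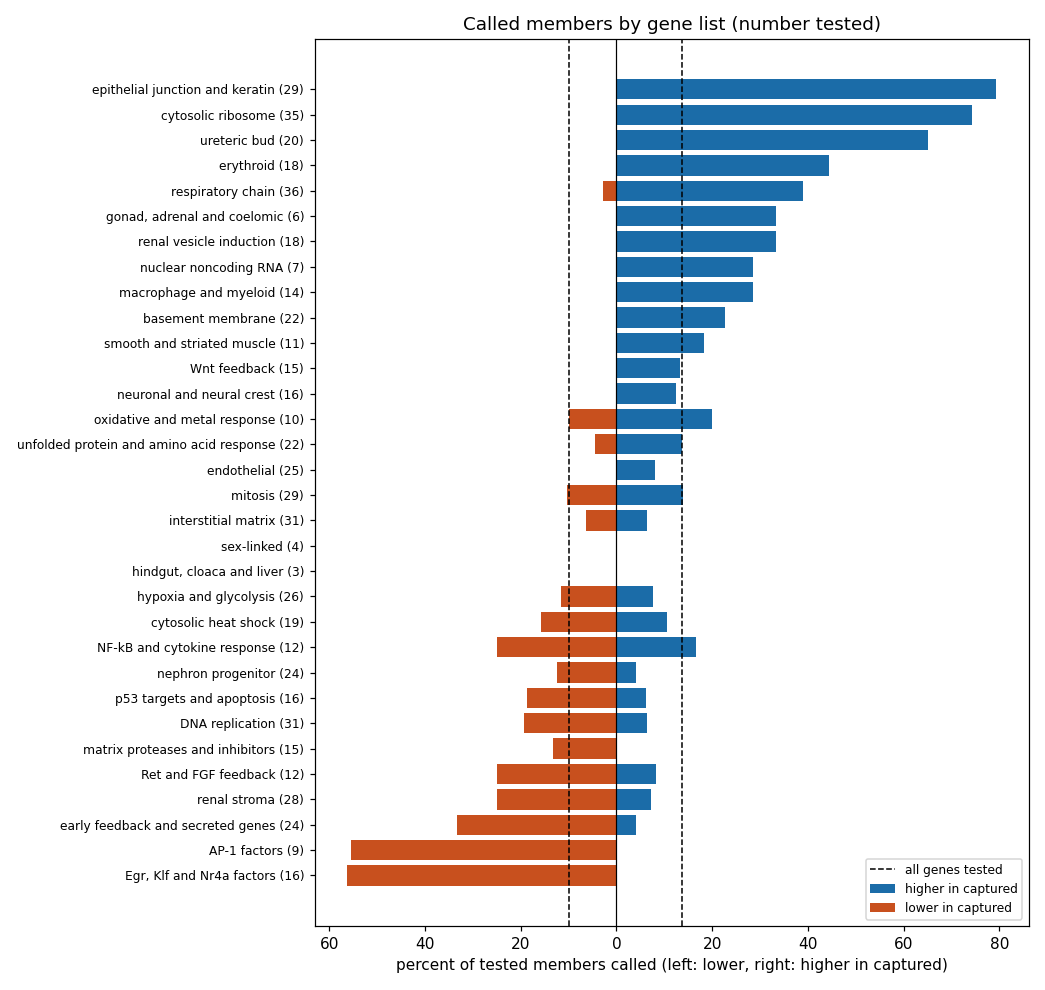
Percent of tested members of each of 32 gene lists called higher (right) or lower (left) in captured than in hand-dissected wild-type mesenchyme, limma adjusted p below 0.05; the number tested is in brackets and the dashed lines give 13.6% and 9.88%, the shares over all 12172 genes. The epithelial, ribosome and bud lists extend farthest to the right and the AP-1 and Egr, Klf and Nr4a lists farthest to the left.

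Genes of the ureteric bud were higher in captured mesenchyme. Of 30 listed, 20 passed the filter and 13 rose, 0 fell and 7 did not pass the test, beside 13.6% of all tested genes higher. Their median was 1.89. Calb1, a calcium-binding protein of the bud, read 9188, 27963, 3731 and 14170 in captured replicates 1 to 4 and 172, 170 and 124 in hand-dissected replicates 5 to 7 (5.83 ± 0.51 SE, limma adjusted p = 0.000143). Ret, the receptor for Gdnf at the bud tip, read 1168, 3577, 584 and 7325 against 207, 175 and 242 (3.12 ± 0.66 SE, adjusted p = 0.00709). Captured replicate 3 was lowest for both genes and still above every hand-dissected array. The enzyme Aldh1a1, which makes retinoic acid, was higher by 3.43, Mal, a membrane raft protein, by 3.24 and the cadherin Cdh16 by 3.20. Of the 20, 6 were above the array median on no hand-dissected array and so passed the filter through captured arrays alone, as did 9 of the 29 epithelial genes described next. In bulk samples a larger share of bud cells and more RNA per cell cannot be told apart.

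Epithelial junction and keratin genes showed the same difference. Of 40 listed, 29 passed the filter and 23 rose, 0 fell and 6 did not pass the test, beside 13.6% of all tested genes higher. Their median was 1.63 and all 29 differences lay above 0. Esrp1, a splicing regulator of epithelia, read 1530, 6182, 1042 and 3291 against 32.0, 7.3 and 36.2 (5.34 ± 0.52 SE, limma adjusted p = 0.000225). The tight junction claudins followed: Cldn3 read 979, 1633, 189 and 1387 against 7.3, 17.8 and 7.5 (4.19 ± 0.59 SE, adjusted p = 0.00119) and Cldn7 read 1587, 6628, 845 and 2971 against 79.0, 92.0 and 130 (4.10 ± 0.54 SE, adjusted p = 0.000858). All these hand-dissected values lay below the median of their array, so the differences depend on the offset. Cdh1, the epithelial cadherin, was higher by 3.50, and Krt8, a simple-epithelium keratin, read 4354, 11446, 1954 and 8566 against 528, 619 and 472 (3.24 ± 0.48 SE, adjusted p = 0.00141).

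Set against the bud itself, the captured level of these genes was an intermediate one. Over the 19 bud-list genes with a mean signal above 1000 on the bud arrays, the median captured level was 12.3% of the bud arrays and the median hand-dissected level 1.68%, and 17 of 19 had the higher level in captured tissue. For the 27 epithelial genes past the same minimum the values were 11.4% and 2.67%, higher in captured tissue for 27 of 27. By array the bud list stood at 6.55%, 15.4%, 5.94% and 17.2% in captured replicates 1 to 4 and at 1.89%, 1.93% and 1.12% in hand-dissected replicates 5 to 7. Captured replicates 2 and 4 were the highest here, as they were for Calb1, and no captured array overlapped the hand-dissected ones. The 5 null captures lay at 5.82% to 12.5%. Without hand-dissected replicate 7, 10 bud and 18 epithelial genes were higher. With the stricter filter 12 bud genes were tested, of which 6 rose and 1 fell, and 14 epithelial genes, of which 11 rose.

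**Figure D4:**
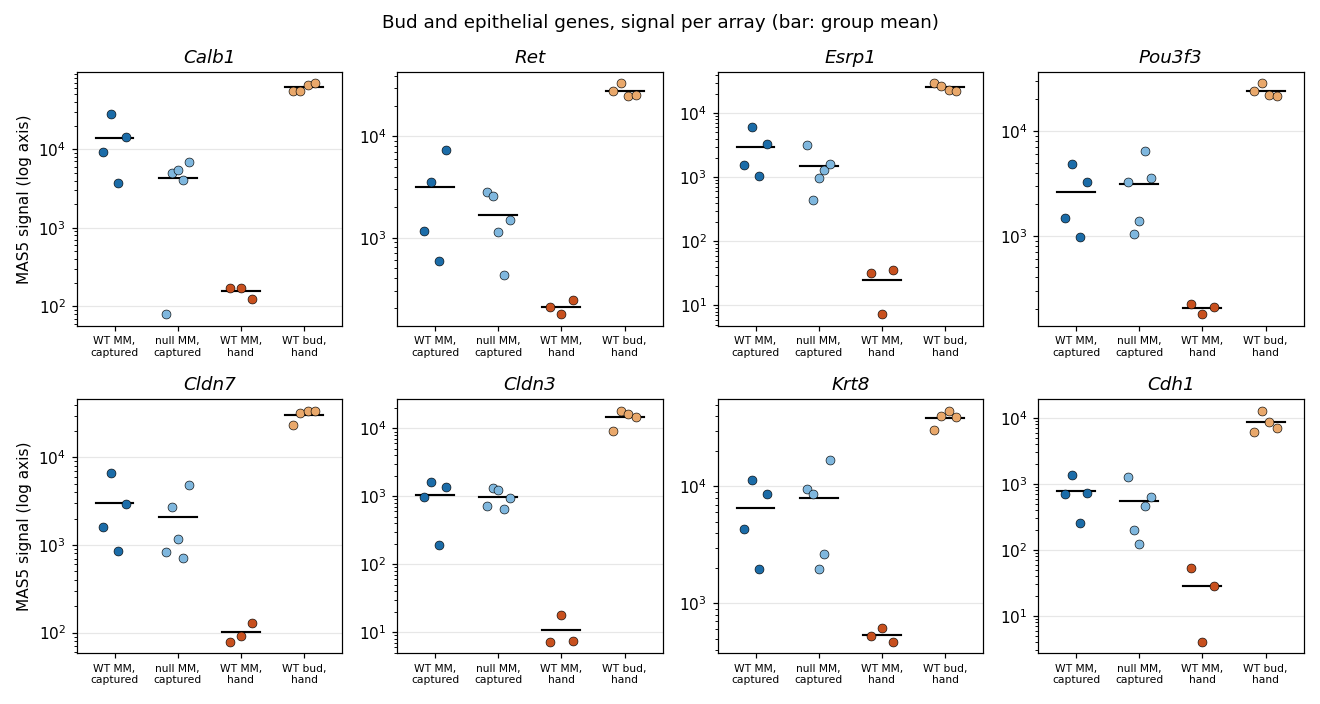
MAS5 signal (log axis) of 8 bud and epithelial genes on all 16 arrays, grouped as captured wild-type mesenchyme (n = 4), captured null mesenchyme (n = 5), hand-dissected mesenchyme (n = 3) and hand-dissected bud (n = 4); points are arrays and bars group means. The 4 captured wild-type arrays lie between the hand-dissected mesenchyme and the bud in all 8 genes, and 1 null array has a Calb1 signal of 79.4.

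Nephron progenitor genes were mostly not called: of 30 listed, 24 passed the filter, 3 fell, 1 rose and 20 did not pass the test (median -0.08, and -0.21 to 0.07 with 1 array left out). The share of progenitor genes that fell lies near the 9.88% of all tested genes, and 13.6% of all tested genes rose. Six2, the homeobox factor that maintains the progenitors, read 5184, 6372, 4618 and 2673 in captured and 20603, 23655 and 21668 in hand-dissected samples (-2.28 ± 0.25 SE, limma adjusted p = 0.000345). The posterior homeobox gene Hoxc10 read 6590, 5185, 6390 and 5361 against 19843, 17765 and 17479 (-1.64 ± 0.15 SE, adjusted p = 0.000168). Both separated the groups fully, although captured Six2 values spread from 2673 to 6372, and they averaged 582 and 180 in bud. Hoxa10 fell by 0.54, a call lost in 6 of the 7 fits with 1 array left out, and the Wnt inhibitor Dkk1 was higher by 1.67. Of 18 tested genes of renal vesicle induction, 6 rose and 0 fell, led by Pou3f3 (1485, 4852, 965 and 3262 against 222, 178 and 210; 3.22 ± 0.46 SE, adjusted p = 0.00124), Lhx1 (2.51) and Emx2 (2.29), transcription factors that the bud also carries. Wnt4, the ligand that triggers epithelial conversion, was higher by 1.14, a call lost in 6 of the 7 fits with 1 array left out. The count of vesicle genes that rose was 4 without captured replicate 2 or 4 or any 1 hand-dissected array, and 7 without captured replicate 1 or 3. It was also 4 with quantile normalization, cyclic loess and median centring. Lhx1 lay below the median on all 3 hand-dissected arrays, so it passed the filter through captured arrays alone.

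Of 28 tested stromal genes, 7 fell, 2 rose and 19 did not pass the test, beside 9.88% lower and 13.6% higher over all genes. Their median was -0.22, and -0.41 without captured replicate 3 or -0.37 without hand-dissected replicate 5. Over the alternative settings other than the stricter filter, the count that fell ran from 0 to 8. Aldh1a2, the retinoic acid synthase of the stroma, fell by 0.98, the forkhead factor Foxc2 by 0.81, the cadherin Fat4 by 0.74 and the Wnt modulator Sfrp2 by 0.70. Pdgfrb, a receptor of perivascular cells, read 4134, 4640, 8414 and 10395 against 1457, 2756 and 3033 (1.46 ± 0.35 SE, limma adjusted p = 0.012), and Tcf21 was higher by 0.99. The count of those that fell was 4 without captured replicate 1 or hand-dissected replicate 6. Without hand-dissected replicate 7, 3 fell and 1 rose, and Tcf21, Fat4 and Sfrp2 were among the calls lost. Fat4 was also lost without captured replicate 1 or hand-dissected replicate 6, and Sfrp2 without captured replicate 1 or 2 or hand-dissected replicate 5 or 6.

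Interstitial matrix genes, whose collagens are the substrate of collagenase as proteins, showed few differences as transcripts, beside 13.6% higher and 9.88% lower over all genes. Of 31 tested interstitial matrix genes, 2 rose (Col3a1 by 0.45 and Postn by 1.11) and 2 fell (Col1a1 and Has2). Col1a1 read 4305, 4086, 8982 and 4740 against 9610, 12697 and 12442 (-1.13 ± 0.26 SE, limma adjusted p = 0.0098), so captured replicate 3 came near the hand-dissected arrays. Of 22 basement membrane genes, 5 rose and 0 fell, beside 13.6% of all genes higher. Their median was 0.43, against 0.08 over all genes. The laminin chains Lamb2, Lama1 and Lamb1 were higher by 1.19, 0.83 and 0.70. With each array centred on its median 1 basement membrane gene rose. The count was 2 without captured replicate 2 or 4 and 3 without hand-dissected replicate 5 or 6, and the median was 0.22 without hand-dissected replicate 5. Of 15 proteases and inhibitors, 0 rose and 2 fell: Adamts1, a protease that cleaves versican, read 5093, 3868, 6187 and 5026 against 13160, 10521 and 12614 (-1.27 ± 0.18 SE, adjusted p = 0.00128), and the inhibitor Timp2 fell by 0.53, with other probe sets at -0.42, -0.32 and 0.47. The calls of Col3a1, Has2, Lama1, the integrin subunit Itga3 and Timp2 were each lost in 2 to 6 of the 7 fits with 1 array left out.

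Genes of blood cells were higher in captured tissue. Of 18 tested erythroid genes, 8 rose and 0 fell, beside 13.6% of all tested genes higher. All 18 differences lay above 0, with a median of 1.13. Of the 18, 2 were above the array median on no hand-dissected array and so passed the filter through captured arrays alone. With the stricter filter 16 were tested, of which 7 rose and 0 fell. The embryonic globin Hba-x read 2980, 9111, 19479 and 16334 against 1877, 3168 and 2529 (1.95 ± 0.51 SE, limma adjusted p = 0.0185), and the anion exchanger Slc4a1 read 1042, 6741, 9465 and 6060 against 644, 1128 and 912 (2.32 ± 0.59 SE, adjusted p = 0.0164). Captured replicate 1 lay within the hand-dissected range for both genes. Without it 13 erythroid genes were called higher, and without hand-dissected replicate 5, which also cost the calls of Hba-x and Slc4a1, the count was 4; without hand-dissected replicate 7, which cost Hba-x too, it was 5. Of 14 macrophage genes 4 rose, beside 13.6% of all tested genes higher, and all 14 differences lay above 0. The complement gene C1qa read 883, 636, 506 and 387 against 7.1, 112 and 11 (3.19 ± 0.47 SE, adjusted p = 0.00136). Its 3 hand-dissected values lay below their array medians, so it passed the filter through captured arrays alone. Among the macrophage markers Csf1r (1.41) and Tyrobp (1.78) were called. Ptprc (0.47, limma adjusted p = 0.522) and Cd68 (0.22, adjusted p = 0.759) were not. The call of Csf1r was lost without captured replicate 1 or 2 or hand-dissected replicate 5.

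Of 25 endothelial genes 2 rose and 0 fell, Ecscr and Egfl7, and the defining markers Pecam1, Cdh5, Kdr and Tek were not called (limma adjusted p = 0.179 to 0.975). The call of Ecscr was lost in 6 of the 7 fits with 1 array left out. The count was 11 without captured replicate 1, whose summed endothelial signal was 26594 against 59079 to 85149 in the other captures. Of 11 tested muscle genes 2 rose and 0 fell, Myl9 (1.99) and Des (1.61), and 4 differences lay below 0; without captured replicate 1 the count was 4. Of 16 tested neuronal and neural crest genes 2 rose and 0 fell, the tubulin Tubb3 (1.55) and the receptor Erbb3 (2.05), and 4 differences lay below 0. That share lies near the 13.6% of all genes, and Erbb3 averaged 21285 on the bud arrays. The calls of Des and Tubb3 were each lost in 6 of the 7 fits with 1 array left out. The gonad and adrenal markers Nr5a1, Gata4 and Lhx9 and the gut markers Cdx2 and Afp did not pass the filter, with captured means of 28.8, 116, 46.2, 67.1 and 33.7. Isl1, a homeobox factor of the mesenchyme around the urinary outlet, varied within both groups, at 3117, 3154, 22918 and 28031 against 19099, 9061 and 4318.

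Genes of protein synthesis and respiration were higher in captured tissue. Of 35 tested ribosomal protein genes, 26 rose, 0 fell and 9 did not pass the test, beside 13.6% of all tested genes higher. Their median was 0.53. Rps24 read 28479, 27167, 20008 and 21155 against 10018, 7805 and 6680 (1.57 ± 0.18 SE, limma adjusted p = 0.000412), and Rps15, Rps14 and Rps9 were higher by 1.32, 1.26 and 1.25. With each array centred on its median, 20 rose and the median was 0.33, and with quantile normalization 17 rose and it was 0.23. Of 36 respiratory chain genes, 14 rose and 1 fell (median 0.39), among them Ndufb9 (0.92), Ndufa5 (0.91) and Cycs (0.87), while the succinate dehydrogenase subunit Sdhc fell by 0.69, a call lost without captured replicate 2 or 4 or hand-dissected replicate 6 or 7. With median centring 10 rose and 4 fell, and other Cycs probe sets lay at 0.56, 0.14 and -0.99. The bioB, bioC and bioD controls differed by 0.97, 0.82 and 1.03 on the log2 scale, more than either median, and their part in these differences was not tested.

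Genes of the cell cycle went both ways, with mitotic shares near the 13.6% higher and 9.88% lower over all tested genes. Of 29 mitotic genes 4 rose and 3 fell (median 0.02): Birc5, an inhibitor of apoptosis in the chromosomal passenger complex, was higher by 1.04, while its partner kinase Aurkb and the spindle motor Kif11 were lower, with differences of -1.14 and -1.08. Other Kif11 probe sets lay at -0.26 and 0.16 and another Mcm10 probe set at 0.50. Of 31 DNA replication genes 2 rose and 6 fell (median -0.07), with Pola1 and Mcm10 lower by 0.86 and 0.77 and Pold1 and Rfc4 higher by 0.81 and 0.79. With median centring 9 mitotic and 10 replication genes fell. With 1 array left out, 1 to 4 mitotic genes rose (1 without hand-dissected replicate 7, 2 without captured replicate 2 or 4 or hand-dissected replicate 5) and 2 to 5 replication genes fell (2 without hand-dissected replicate 6). The count of replication genes that rose was 4 without captured replicate 3 and 1 without hand-dissected replicate 7, which cost the call of Pold1 and moved the replication median to -0.17. Of 15 Wnt feedback genes 2 rose, Dkk1 and Tnfrsf19, a share near the 13.6% of all genes. The call of Tnfrsf19 was lost in 6 of the 7 fits with 1 array left out. Of 7 nuclear noncoding RNAs 2 rose, Kcnq1ot1 (5396, 3481, 2842 and 4698 against 914, 745 and 1313; 2.01 ± 0.27 SE, limma adjusted p = 0.000995) and Meg3 (0.82), of whose 9 other tested probe sets 6 were positive (0.26 to 2.04) and 3 negative (-0.22, -0.42 and -0.90).

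Some of the largest differences fell outside these lists. Nav2, a cytoskeletal gene responsive to retinoic acid, read 1377, 1384, 1790 and 1234 against 6296, 7127 and 7278 (-2.24 ± 0.20 SE, limma adjusted p = 0.000143), and the zinc finger gene Zbtb1 fell by 2.23. Srrm2, a splicing protein of nuclear speckles, read 29527, 37639, 12886 and 30802 against 3275, 2707 and 2286 (3.22 ± 0.31 SE, adjusted p = 0.000219), and Dcun1d1, a factor of cullin neddylation, was higher by 2.80. For all 4 of these genes another probe set pointed the other way: 0.82 for Nav2, 0.87 for Zbtb1, -0.80 for Srrm2, and -0.08, -0.69 and -0.69 for Dcun1d1. Srrm2 and Nav2 also had a dimmer probe set with the direction of the brightest one, at 1.50 (limma adjusted p = 0.0141) and -0.64 (adjusted p = 0.295). Among all genes with several tested probe sets, 212 of 5160 had calls in both directions. The zinc finger gene Zfp934 and the retinoic acid synthase Aldh1a3 were higher by 3.32 and 2.96.

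The other tissue and genotype allow the order of all 16 arrays to be read by isolation method, as a description that shares the 7 arrays above. In 212 of 12172 genes (1.74%) all 9 captured arrays lay below all 7 hand-dissected arrays, and in 164 (1.35%) above them. The widest gaps between the nearest arrays in the first set were for Fosb (3.15 on the log2 scale), Egr2 (2.91), Egr1 (2.86), Fos (2.32), Zfp36 (1.72), Nav2 (1.33), Nr4a1 (1.30) and Klf4 (0.85). Fos averaged 485 in null captures and 11840 in bud, and Egr1 1735 and 37136, against 42569 for Egr1 in hand-dissected mesenchyme. Not every early-response gene was as bright in bud. Fosb lay at 1573 to 5923 in bud and at 14849 to 20617 in hand-dissected mesenchyme, Egr3 at 82.2 to 96.9 and at 341 to 3887, and Nr4a3, which was not called, averaged 172 and 1196. In the opposite set the gaps were smaller, led by Ccdc107 and the membrane protein Cmtm3 (0.71 each), the collagen-modifying P3h3 (0.68) and the F-box gene Fbxl6 (0.67), followed by 2810410L24Rik (0.61), the receptor Fgfr1 (0.60), the integrin subunit Itgb5 (0.59) and the ephrin Efnb1 (0.54), whose other probe sets lay at 0.27 and -0.02. None of the 4 bud and epithelial genes Calb1, Ret, Esrp1 and Krt8 ordered the arrays this way, since hand-dissected bud was the brightest group for each.

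**Figure D5:**
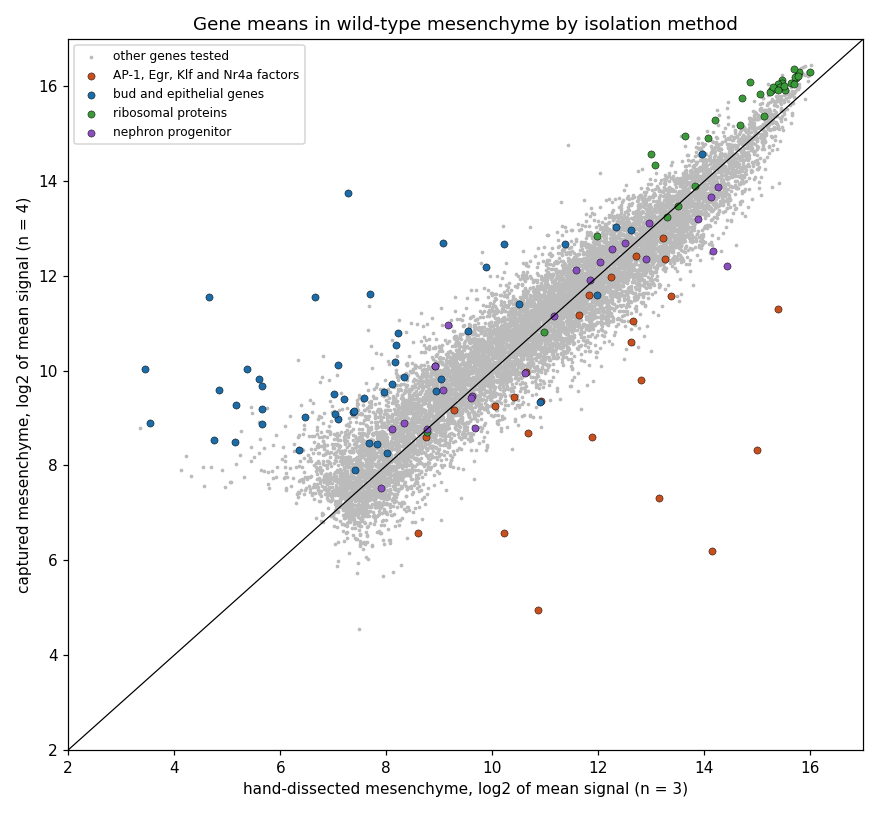
Log2 of the mean signal of each of 12172 tested genes in hand-dissected (horizontal, n = 3) and captured (vertical, n = 4) wild-type mesenchyme, with the line of equality. Early-response factors lie below the line, bud and epithelial genes mostly above it at low hand-dissected signal, ribosomal proteins above it at the bright end and nephron progenitor genes near it, with Six2 and Hoxc10 below.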

How the data were processed

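The 16 arrays (Affymetrix MOE430_v2) were read from the deposited value table, whose intensity values the authors made with MAS5, as the submitters' processing notes name it, without a version. Each array's mean after trimming 2% at each end was 1500, which shows a common scaling, and median signals of the 16 arrays ran from 112.7 to 209.2. No further normalization was applied. Probe sets were named from the GEO platform annotation: 34945 had 1 symbol, 932 several and 9160 none. A probe set was tested when above its array's median in at least 3 of the 7 arrays, so a gene bright in only the hand-dissected group passes through that group. limma 3.58.1 in R 4.3.3 was run with an intensity trend on log2(signal + 36.3), and was tested on simulated data. Quality measures were compared by two-sided exact permutation over 35 splits. Tables and figures used Python 3.11.15, pandas 2.3.3, numpy 2.4.6, scipy 1.17.1 and matplotlib 3.10.9. The number of arrays limits the precision. Where embryos were pooled, p-values measure the spread between pools.

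The gene lists, markers and comparison were chosen with earlier results of these data known. Genes named are Fos, Fosb, Egr1 and Calb1; the 12 largest called differences in each direction with separate groups and a mean of at least 1000 in the brighter group; called members of the AP-1 and Egr, Klf and Nr4a lists with the 2 brightest others; in every other list up to 4 called members in each direction, or the 2 brightest where none was called; and the 8 genes with the widest gap over all 16 arrays in each direction. Dusp1 and Errfi1 were named after their values were seen, for their promoter match. Alternatives were other offsets, a floor, other scalings, other filters, array weights, no trend, all 16 arrays in the fit, each array left out and the other probe sets of a gene.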

Additional observations from a re-analysis of the deposited data

Results flagged for a closer look

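Dixon's test for a single outlying array was applied to the 4 captured arrays of each of 144 named genes. Chance alone picks out about 1 in 20 groups, and the 8 genes picked out lie near that share. Captured replicate 4 stood apart in 4 of them: Tubb3, a neuronal tubulin, was high at 974 beside 152, 220 and 280, P3h3 was high at 1939, Mt1, a metallothionein, was high at 1131, and Pfkl, a glycolytic enzyme, was low at 3972. Captured replicate 3 was high for Col1a1 at 8982 and low for Ccdc107 at 1931. Captured replicate 1 was high for the muscle filament gene Des at 833 and for Efnb1 at 3361. Of these, Tubb3 and Des no longer passed in most fits with 1 array left out.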

How the results depend on the processing

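Fos, Fosb, Egr1 and Calb1 kept their direction and stayed past the threshold in every one of the alternatives in which they were tested; Fos, Fosb and Calb1 could not be fitted under the stricter filter, which removes them. Of 136 called named genes, 71 passed in every alternative in which their probe set was tested, and 0 changed direction on that probe set. The count of called probe sets moved: 1877 higher and 934 lower (2811 in all) with all 16 arrays in the fit, 2435 and 3207 with median centring, and 3014 lower with array weights. With 1 array left out it ran from 2365 to 3887 higher, 1026 to 2150 lower and 3391 to 6037 in all, lowest without hand-dissected replicate 7. No paired analysis was possible because captured replicates 1 to 4 and hand-dissected replicates 5 to 7 share no numbers.

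Of 121 other probe sets of called named genes, 43 gave the same call, 51 the same direction without passing and 27 the opposite direction; the cause was not tested. The opposite values, with those of the uncalled Ier5 and Isl1, were Nfkbia (0.01 and 0.41), Hsp90aa1 (-0.50), Dnajb4 (0.03), Fth1 (-0.43), Slc30a1 (0.38), Ero1a (0.48), Tpi1 (0.06), Timp2 (0.47), Kif11 (0.16), Mcm10 (0.50), Fen1 (0.08), Cycs (-0.99) and Isl1 (1.21). Isl1 also changed sign with array weights (0.68), quantile normalization (0.03) and with single arrays left out (-0.57 to 0.51). With single arrays left out Xist ran from -0.54 to 3.06 and Eif2s3y from -0.66 to 2.66. Further opposite values were 0.72 for Klf9, 0.36 for Srf, 0.71 for Ier5, 0.31 for Spred1, 0.05 for Il17rd, 0.82 for Nav2, 0.87 for Zbtb1 (limma adjusted p = 0.0417), -0.80 for Srrm2, -0.08 and -0.69 for Dcun1d1, -0.22, -0.42 and -0.90 for Meg3 and -0.02 for Efnb1. Genes at or near the array median have differences that depend on the offset.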
